A study of Mus musculus with 30 samples.

Results

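The 10 genes described here encode a set of energy and nutrient sensors of the cell. They are 6 subunit genes of AMP-activated protein kinase (AMPK), which are Prkaa1, Prkaa2, Prkab1, Prkab2, Prkag1 and Prkag2, the sestrin genes Sesn1 and Sesn3, and the folliculin gene Flcn with its partner Fnip1. They were chosen by name, and each matched 1 identifier among the 52630 genes of the time-course table and the 55487 genes of the passage table. All 10 passed the filter on low counts in both tables. RNA-seq was done on E14tg2a mouse embryonic stem cells (ESCs), a line grown on gelatin and carrying no label of a transgene or treatment other than the medium. In the time course, cells were in Serum/LIF, labelled 0 h, or in Enhanced Metabolic Media (EMM) for 3, 9 or 24 h, with 3 libraries per group. In the passage experiment, cells had spent 10 (P10) or 20 (P20) passages in Serum/LIF, in EMM or in 2i/LIF, again with 3 libraries per group and 18 in all. EMM is the Serum/LIF medium with D-galactose in place of D-glucose and pyruvate, 2i/LIF contains inhibitors of MEK and GSK3, and every group received LIF. Serum/LIF and EMM are DMEM with serum. The paper describes 2i/LIF as a defined condition and lists N2B27 as its base for the proteome cultures. Comparisons with 2i/LIF therefore also differ in the base medium. The labels give the Serum/LIF libraries of the time course as 0 h while their treatment text speaks of 24 h in that medium.

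AMPK is a trimer of a catalytic α subunit, a β subunit that holds the complex together and a γ subunit that binds adenine nucleotides, and it is activated when ATP falls. Sestrins are stress-induced proteins that restrain the growth kinase mTORC1. Folliculin, bound to FNIP1 or FNIP2, acts at the lysosome on RagC and RagD, small GTPases through which mTORC1 phosphorylates the transcription factors TFEB and TFE3 and keeps them out of the nucleus. AMPK phosphorylates FNIP1, which joins these branches, and folliculin is known in ESCs as a factor needed for the exit from pluripotency.

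Total counts ran from 24074132 to 35301962 per library in the time course and from 6944904 to 27912928 in the passage experiment, with the shallowest library in P20 2i/LIF (replicate 1). Values per library are normalized counts, which are counts scaled with TMM to the mean library size of the experiment, so levels are compared within an experiment only. A gene was called at an adjusted p under 0.01 by edgeR's quasi-likelihood test over all genes, whatever the size of its change. The 5 pluripotent cell markers summed to between 100200 and 108800 normalized counts in the time course and between 40440 and 63420 in the passage experiment. In the passage experiment the P10 EMM libraries had higher sums than all other libraries. In bulk samples, fewer cells of a type and less RNA per cell cannot be told apart. The methods give the RNA-seq replicates of every condition as biological replicates, each taken from a separate experiment. A chi-square per degree of freedom set the spread within pairs of libraries of a group against sampling noise. In the time course it was 9.72 to 11.7 in Serum/LIF and 2.05 to 2.64 at 3 h. It was 2.45 for EMM 9 h replicates 1 and 2 and 2.81 for EMM 24 h replicates 2 and 3. Why some pairs lay nearer to sampling noise was not tested.

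Flcn and Fnip1 lie on the same chromosome, and their promoters are shown because these were the members with the largest rises over Serum/LIF in EMM. The GENCODE gene model of Flcn (ENSMUSG00000032633) spans chr11:59791408-59810016 on the minus strand and that of Fnip1 (ENSMUSG00000035992) spans chr11:54438199-54518235 on the plus strand, both in GRCm38. The lines give the 250 bases before the RefSeq start site, 5′ to 3′ on the gene's strand (GRCm38.p6), at chr11:54437929-54438178 for Fnip1 and chr11:59810040-59810289 for Flcn, with capitals for a match to TCACGTG on either strand.
Fnip1: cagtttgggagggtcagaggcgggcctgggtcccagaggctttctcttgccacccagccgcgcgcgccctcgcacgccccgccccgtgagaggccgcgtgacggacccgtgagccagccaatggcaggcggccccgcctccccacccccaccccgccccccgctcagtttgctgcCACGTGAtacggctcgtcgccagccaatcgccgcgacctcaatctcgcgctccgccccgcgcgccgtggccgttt
Flcn: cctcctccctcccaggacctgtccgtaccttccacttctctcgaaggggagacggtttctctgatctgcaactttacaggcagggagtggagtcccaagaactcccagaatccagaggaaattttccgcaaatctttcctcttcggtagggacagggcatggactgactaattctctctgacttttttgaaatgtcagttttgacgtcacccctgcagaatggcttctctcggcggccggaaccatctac
TCACGTG, the M-box recognized by TFEB, TFE3 and MITF, was found in the Fnip1 window 75 bases before the start site, and it contains the E-box core CACGTG. Of 32851 RefSeq promoter windows that also include the 50 bases after the start site, 3.77% held TCACGTG on either strand and 7.15% held CACGTG. No such letters were present in the windows of the other 9 members, and the longer TCACGTGA, held by 0.974% of windows, was in no member's window. Among the other motifs searched, the forkhead motif TGTTTAC (3.65% of windows) was in 1 Sesn1 window, 22 bases after the start site, and in no other member's, and the ATF4 element TGATGNAA (3.97%) was in none.

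Flcn and Fnip1 transcripts were higher in EMM than in Serum/LIF at every time and passage measured. Flcn, the GTPase-activating subunit, had normalized counts of 2148, 2331 and 2108 in Serum/LIF, 3761, 3946 and 3873 after 3 h of EMM, 3504, 3351 and 3214 after 9 h and 3532, 3235 and 3416 after 24 h. All 9 EMM libraries lay above all Serum/LIF libraries, and the 3 h libraries were the highest. Against Serum/LIF, Flcn had a log2 fold change of 0.81 ± 0.05 (adjusted p = 5.48e-09) at 3 h, 0.61 ± 0.05 at 9 h and 0.63 ± 0.05 at 24 h. Between 3 h and 24 h Flcn fell by 0.19 ± 0.05 on the log2 scale (adjusted p = 0.00394). This last call was lost without any one of EMM 3 h replicates 2 and 3 and EMM 24 h replicates 2 and 3, with values from -0.19 to -0.16, and with scaling by library totals (-0.13).

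Fnip1, the adaptor that stabilizes folliculin, stood at 1597, 1817 and 1973 in Serum/LIF, 2944, 2855 and 3070.1 at 3 h, 3105, 3174 and 3079.5 at 9 h and 2970.5, 3088 and 3012 at 24 h. The EMM groups did not overlap with Serum/LIF and lay close to each other. Its log2 fold change was 0.72 ± 0.06 (adjusted p = 1.28e-07) at 3 h, 0.80 ± 0.06 at 9 h and 0.75 ± 0.06 at 24 h, and the difference between 24 h and 3 h was 0.03 ± 0.06 (adjusted p = 0.656). The 3 comparisons with Serum/LIF share the same control libraries. Fnip1 contains the small nuclear RNA gene Gm24198 on its own strand, and Flcn has no overlapping gene.

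**Figure D1:**
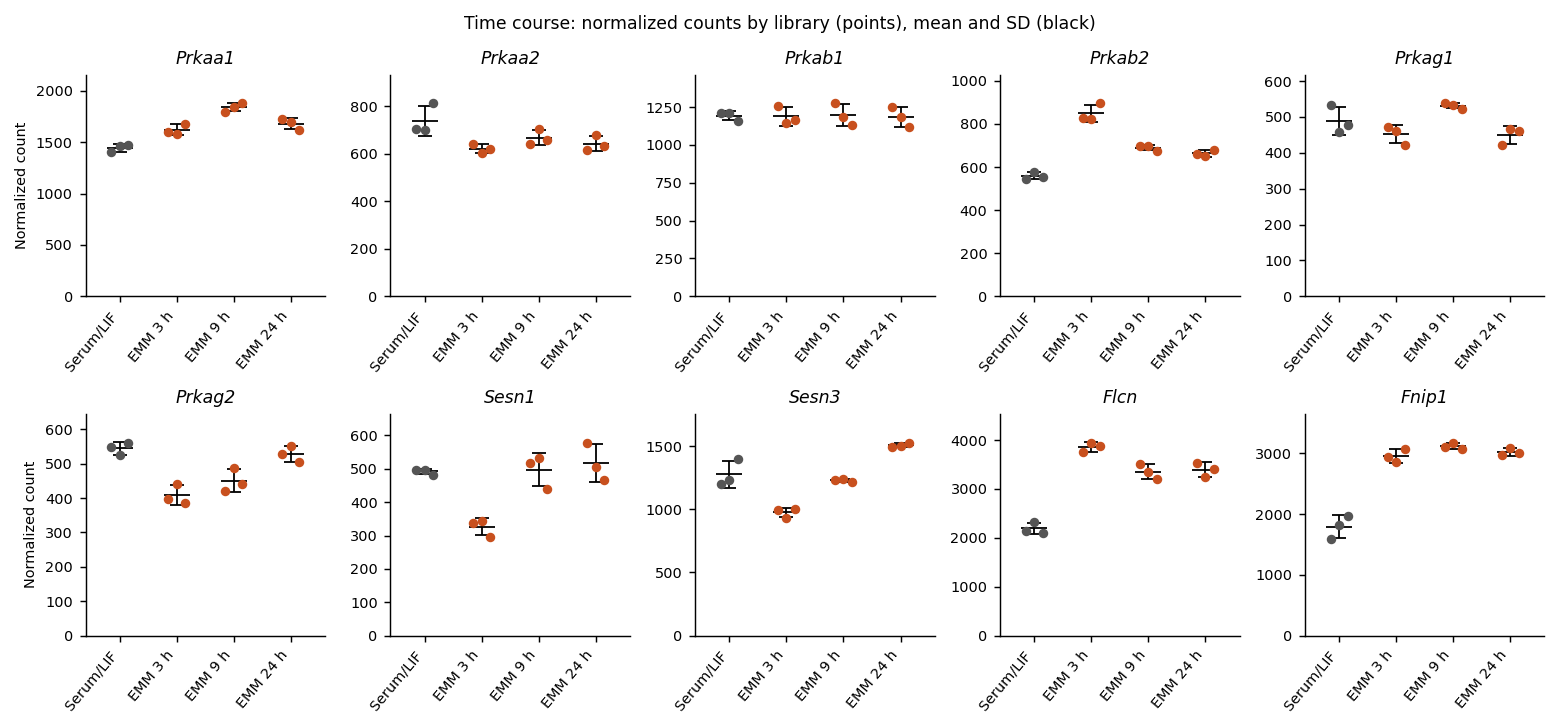
Normalized counts (y axis, linear, from 0) of the 10 members in the 12 time-course libraries, with points for libraries and black marks for the mean and SD of 3. Flcn and Fnip1 lie above Serum/LIF at all 3 times, while Sesn1 and Sesn3 dip at 3 h and return by 9 h.

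After long culture the same pair was again higher in EMM than in Serum/LIF, in libraries that share nothing with the time course. At P10 Flcn had 619, 622 and 622 normalized counts in Serum/LIF, 1169, 1036 and 1001 in EMM and 1281, 1542 and 1504 in 2i/LIF, so that 2i/LIF was the highest group. At P20 the values were 694, 689 and 732 in Serum/LIF, 1712, 1561 and 1638 in EMM and 531, 688 and 665 in 2i/LIF, and EMM stood above both other media, with 2i/LIF just under Serum/LIF. For EMM against Serum/LIF the log2 fold change was 0.79 ± 0.10 (adjusted p = 1.9e-06) at P10 and 1.22 ± 0.09 (adjusted p = 2.42e-08) at P20. For 2i/LIF against Serum/LIF it was 1.22 ± 0.09 (adjusted p = 3.62e-09) at P10 and -0.15 ± 0.10 (adjusted p = 0.186) at P20, the latter with a 95% interval from -0.34 to 0.03. EMM against 2i/LIF gave -0.43 ± 0.09 at P10 and 1.37 ± 0.09 at P20.

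Fnip1 ran 748, 896 and 846 in P10 Serum/LIF, 1332, 1449.5 and 1221 in P10 EMM and 1254, 1494 and 1561 in P10 2i/LIF. At P20 it ran 753, 874 and 868 in Serum/LIF, 2194, 2144 and 2018 in EMM and 808, 847 and 755 in 2i/LIF. At P10 both media lay above Serum/LIF and overlapped with each other, whereas at P20 EMM stood alone. For EMM against Serum/LIF Fnip1 had a log2 fold change of 0.69 ± 0.10 (adjusted p = 1.12e-05) at P10 and 1.35 ± 0.10 (adjusted p = 8.51e-09) at P20, and for 2i/LIF against Serum/LIF one of 0.79 ± 0.10 (adjusted p = 1.09e-06) at P10 and -0.05 ± 0.10 (adjusted p = 0.685) at P20. The EMM against Serum/LIF difference of Fnip1 grew by 0.66 ± 0.13 from P10 to P20 (adjusted p = 0.00142), and that of Flcn by 0.43 ± 0.13 (adjusted p = 0.0232), which passed by the DESeq2 Wald test (0.44, adjusted p = 0.00555) and not by edgeR. Both genes lie on chromosome 11, where the median log2 fold change of the 1251 tested genes was -0.10 at P10 and -0.13 at P20 for EMM against Serum/LIF. For 2i/LIF against Serum/LIF that median was -0.11 at P10 and -0.08 at P20. In P20 2i/LIF over Serum/LIF the medians of chromosomes 8 and 6 stood at 0.45 and 0.33, beside 0.01 and 0.11 at P10. No member lies on either chromosome, and the part of such shifts in the members' values was not tested.

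**Figure D2:**
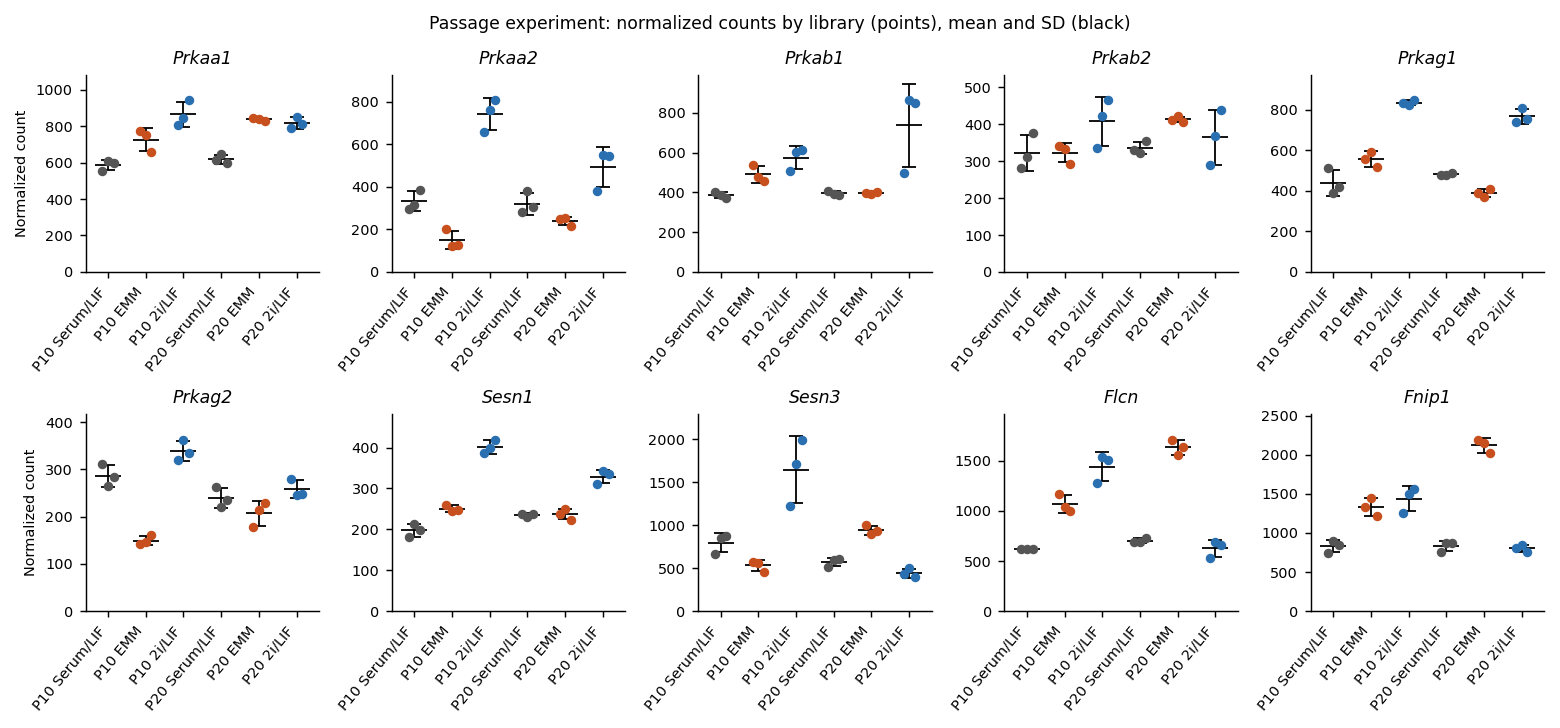
Normalized counts (y axis, linear, from 0) of the 10 members in the 18 passage libraries, with Serum/LIF in grey, EMM in orange, 2i/LIF in blue and black marks for the mean and SD of 3 libraries. Flcn and Fnip1 are high in P10 2i/LIF but at the Serum/LIF level in P20 2i/LIF, and P20 EMM holds their highest values.

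Fnip2, the paralogue of Fnip1 and an alternative partner of folliculin, is not a member and was examined as a named relative. It rose by 0.79 ± 0.06 (log2, adjusted p = 2.95e-08) at 3 h, 0.78 ± 0.06 at 9 h and 0.88 ± 0.06 at 24 h. For EMM against Serum/LIF Fnip2 rose by 1.08 ± 0.08 at P10 and 1.22 ± 0.08 at P20, and for 2i/LIF by 1.14 ± 0.08 at P10 and 0.29 ± 0.08 at P20 (adjusted p = 0.00699). Of the Rag GTPases on which the complex acts, Rragc (RagC) rose by 1.00 ± 0.03 at 3 h (adjusted p = 1.7e-11) and by 1.39 ± 0.08 in P20 EMM over Serum/LIF. Rragd (RagD) rose by 1.46 ± 0.11 and Rragb by 1.28 ± 0.12 in P20 EMM. Of the 10 genes of Rag GTPases and Ragulator, their lysosomal anchor, 5 were called higher and none lower at 3 h (16.3% of all genes higher), 5 and none at 9 h (18.5%), 4 and 1 at 24 h (21.8%, with 22.2% lower), 3 and none in P10 EMM over Serum/LIF (18.7%) and 5 and none in P20 EMM (13.6%). Among the transcription factors downstream, Tfeb rose by 1.27 ± 0.06 at 3 h, by 1.70 ± 0.16 in P10 EMM and by 0.77 ± 0.15 in P20 EMM over Serum/LIF. Mitf rose by 2.28 ± 0.11 in P10 EMM and 0.51 ± 0.11 in P20 EMM over Serum/LIF, and by 2.97 ± 0.11 in P10 2i/LIF and 2.73 ± 0.11 in P20 2i/LIF. The EMM difference changed between the passages by -0.93 ± 0.22 for Tfeb (adjusted p = 0.00418) and by -1.77 ± 0.15 for Mitf. Tfe3 fell by 0.61 on the log2 scale at 24 h. Tfec, the remaining factor of that family, did not pass the filter on low counts.

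**Figure D3:**
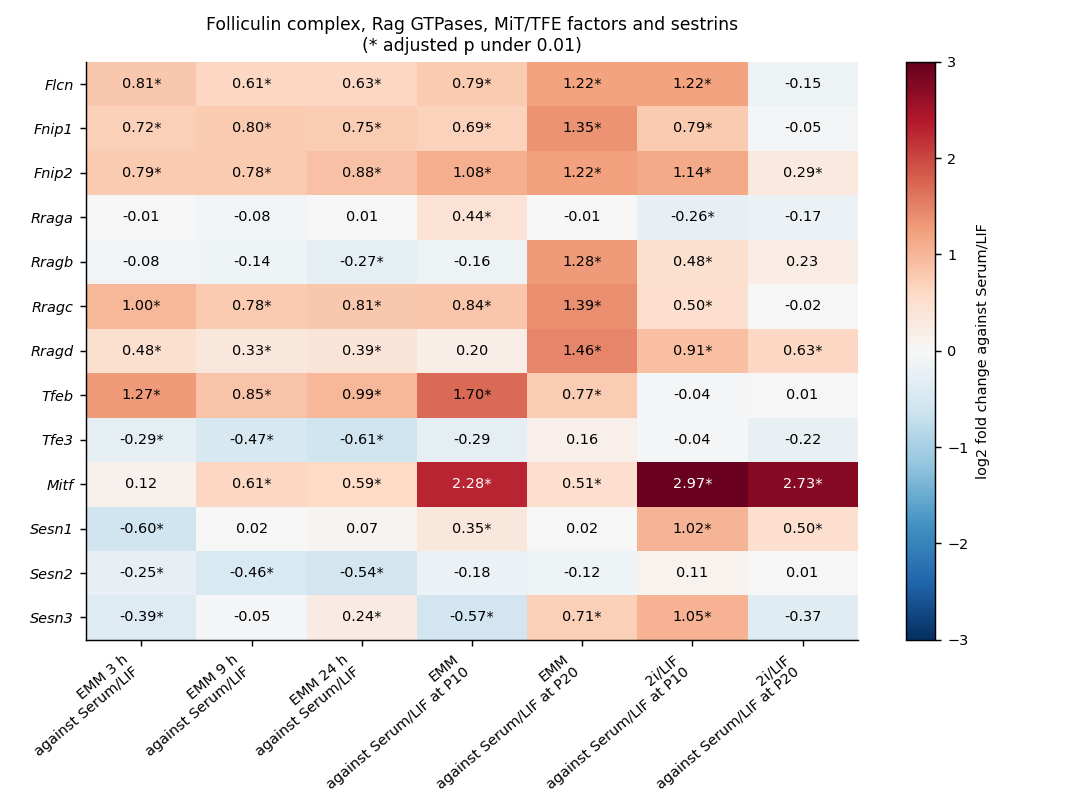
Log2 fold change against Serum/LIF (color and printed number) of folliculin, its partners, the Rag GTPases, 3 MiT/TFE factors and the sestrins, with comparisons in columns and an asterisk for an adjusted p under 0.01. Flcn, Fnip1, Fnip2 and Rragc carry an asterisk in all 5 EMM columns, while Rraga carries one with a positive value in P10 EMM alone among them.

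Likeness was measured for the member with the largest change against Serum/LIF in each experiment. The genes whose log2 CPM followed Flcn most closely over the 12 time-course libraries were Dlgap3 (Pearson r = 0.991), Tbc1d2 (r = 0.990) and Dpp7 (r = 0.988). In the passage experiment the genes closest to Fnip1 over 18 libraries were AW549877 (r = 0.974), Ubn1 (r = 0.972) and Idua (r = 0.962). The points of each correlation are libraries that fall into the same groups, and these values are descriptions.

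Sesn1 and Sesn3 fell at 3 h and were higher at 24 h than at 3 h, whereas Sesn2 fell at each time. Sesn1, which like Sesn3 is a target of FOXO factors, had 496, 498 and 482 normalized counts in Serum/LIF, 339, 342 and 297 at 3 h, 519, 533 and 441 at 9 h and 578, 506 and 466 at 24 h. The 3 h libraries lay below all others, and the 9 h and 24 h libraries overlapped with Serum/LIF. Sesn1 had a log2 fold change of -0.60 ± 0.09 (adjusted p = 8.18e-05) at 3 h and 0.07 ± 0.09 (adjusted p = 0.526) at 24 h, and 24 h against 3 h was 0.67 ± 0.09 (adjusted p = 2.24e-05). Sesn1 (ENSMUSG00000038332) lies at chr10:41809935-41908424 on the plus strand and shares its strand with the overlapping gene 9930024M15Rik, so that counts of these could be split or shared.

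Sesn3 (ENSMUSG00000032009, chr9:14275067-14333101, plus strand, no overlapping gene) had 1200.1, 1232 and 1401 in Serum/LIF, 993, 933 and 1002 at 3 h, 1235, 1242 and 1216 at 9 h and 1495, 1504 and 1527 at 24 h. It went below Serum/LIF at 3 h without overlap and above it at 24 h without overlap. Its log2 fold change was -0.39 ± 0.06 (adjusted p = 3.98e-05) at 3 h, -0.05 ± 0.05 (adjusted p = 0.444) at 9 h and 0.24 ± 0.05 (adjusted p = 0.00156) at 24 h, with 0.63 ± 0.05 (adjusted p = 2.94e-07) between 24 h and 3 h. Sesn2, the third sestrin, a stress-responsive target of ATF4 and p53, was not a member. It fell by 0.25 ± 0.03 at 3 h, by 0.46 ± 0.03 at 9 h and by 0.54 ± 0.03 at 24 h (log2, adjusted p = 6.22e-09 at 24 h) and was not called for EMM or 2i/LIF against Serum/LIF at either passage. A list of 7 genes held regulators of sestrin expression (Trp53, Foxo1, Foxo4 and Atf4) together with other targets of p53 and stress signalling (Mdm2, Cdkn1a and Ddit4). Of these 7, 5 were called lower and none higher at 24 h, where 22.2% of all genes were called lower, among them Ddit4, another mTORC1 inhibitor of the stress response, at -1.23 ± 0.13.

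In the passage experiment Sesn3 had no fixed order of media. At P10 it ran 666, 855 and 875 in Serum/LIF, 576, 561 and 458 in EMM and 1224, 1717 and 1996 in 2i/LIF, with EMM lowest, 2i/LIF highest and no overlap. At P20 it ran 519.9, 599 and 604 in Serum/LIF, 997, 897 and 933 in EMM and 432, 499 and 396 in 2i/LIF, with EMM highest and 2i/LIF lowest. EMM against Serum/LIF was -0.57 ± 0.15 (adjusted p = 0.00436) at P10 and 0.71 ± 0.15 (adjusted p = 0.000961) at P20, and EMM against 2i/LIF was -1.62 ± 0.15 at P10 and 1.09 ± 0.15 at P20. The change of the EMM against Serum/LIF difference between passages was 1.29 ± 0.21 (adjusted p = 0.00022). The P10 call for EMM against Serum/LIF was lost without any one of P10 EMM replicates 2 and 3 or P10 Serum/LIF replicates 2 and 3, with values from -0.61 to -0.48 on the log2 scale.

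Sesn1 was highest in 2i/LIF at both passages. Its normalized counts were 182, 212 and 198 in P10 Serum/LIF, 260.4, 245 and 247 in P10 EMM and 386, 398 and 419 in P10 2i/LIF. At P20 they were 237, 229 and 237 in Serum/LIF, 237, 249.6 and 224 in EMM and 310.1, 342 and 335 in 2i/LIF. Serum/LIF and EMM overlapped at P20 and not at P10. For 2i/LIF against Serum/LIF Sesn1 was at 1.02 ± 0.09 (adjusted p = 1.76e-08) at P10 and 0.50 ± 0.09 (adjusted p = 0.000119) at P20, and EMM against Serum/LIF was 0.35 ± 0.09 (adjusted p = 0.0043) at P10 and 0.02 ± 0.09 (adjusted p = 0.899) at P20. The P10 EMM call was lost without P10 EMM replicate 1 (0.32) and without P10 Serum/LIF replicate 1 (0.30) or 3 (0.36), and by DESeq2 (adjusted p = 0.0138).

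Of the catalytic subunits, Prkaa1 rose in EMM, while Prkaa2 had lower values that were called in the time course at 3 h only. Prkaa1, encoding α1 (ENSMUSG00000050697, chr15:5143861-5181899, plus strand), had 1401, 1465 and 1475 normalized counts in Serum/LIF, 1599, 1582 and 1681 after 3 h of EMM, 1797, 1847 and 1877 after 9 h and 1726, 1696 and 1622 after 24 h. All EMM libraries were above Serum/LIF, and the log2 fold change was 0.35 ± 0.04 (adjusted p = 8.27e-06) at 9 h, 0.16 ± 0.04 (adjusted p = 0.00555) at 3 h and 0.22 ± 0.04 (adjusted p = 0.000535) at 24 h. The 3 h call rested on single libraries, being lost when Serum/LIF replicate 1 or 2 or EMM 3 h replicate 1 or 3 was left out (0.14 to 0.18), and it was lost with scaling by library totals (0.09). Prkaa1 has an annotated antisense gene, Gm15938, and strand use in the counting is not given in the sources used here, so reads of such pairs cannot be told apart.

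Prkaa2, encoding α2 (ENSMUSG00000028518, chr4:105029874-105109890, minus strand, no overlapping gene), had 704, 702 and 812 in Serum/LIF and 641, 604 and 622 at 3 h. The EMM 3 h libraries were all lower than the Serum/LIF libraries. As a log2 fold change this was -0.25 ± 0.07 (adjusted p = 0.00594) at 3 h, -0.15 ± 0.07 (adjusted p = 0.0776) at 9 h and -0.20 ± 0.07 (adjusted p = 0.0174) at 24 h. The 3 h call did not hold when Serum/LIF replicate 3 (-0.17) or any EMM 3 h replicate (-0.27 to -0.22) was left out. The 24 h value ran from -0.23 to -0.12 with a single library left out.

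In P10 EMM over Serum/LIF the α genes were again called in opposite directions. Prkaa2 had 296, 314 and 385 in P10 Serum/LIF, 201, 123 and 128 in P10 EMM and 659, 762 and 808 in P10 2i/LIF, without overlap. At P20 it had 280.4, 379 and 304 in Serum/LIF, 250.2, 254 and 218 in EMM and 383, 550.5 and 547 in 2i/LIF, again without overlap, and EMM was the lowest group at both passages. EMM against Serum/LIF was -1.08 ± 0.19 (adjusted p = 9.89e-05) at P10 and -0.42 ± 0.17 (adjusted p = 0.06) at P20, EMM against 2i/LIF was -2.25 ± 0.18 at P10 and -1.05 ± 0.17 at P20, and 2i/LIF against Serum/LIF was 1.17 ± 0.17 at P10 and 0.63 ± 0.17 (adjusted p = 0.00413) at P20. The last call was lost without P20 2i/LIF replicate 2 (0.55) or 3 (0.56) and without P20 Serum/LIF replicate 1 (0.54) or 3 (0.59). It was also lost with library totals (0.51, adjusted p = 0.0205) and in a fit of these groups alone (0.61, adjusted p = 0.0118). The P20 value of EMM against Serum/LIF ran from -0.52 to -0.28 with a single library left out.

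At P10 Prkaa1 had 556, 611 and 596 in Serum/LIF, 773, 749.7 and 655 in EMM and 807, 845 and 942 in 2i/LIF. At P20 it had 616, 646 and 596 in Serum/LIF, 844, 838 and 828 in EMM and 789, 851 and 810.4 in 2i/LIF. Both media were above Serum/LIF without overlap at each passage. EMM against Serum/LIF was 0.31 ± 0.08 (adjusted p = 0.00378) at P10 and 0.43 ± 0.08 (adjusted p = 0.000303) at P20, and 2i/LIF against Serum/LIF was 0.56 ± 0.08 at P10 and 0.40 ± 0.08 at P20. The P10 EMM call was lost without P10 EMM replicate 1 (0.26) or 2 (0.29) and without P10 Serum/LIF replicate 1 (0.28).

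Counts divided by exon length allow the paralogues to be set against each other within a library. In that per-length measure Prkaa1 was 77.0% ± 1.26 of the α sum in Serum/LIF and 81.7% ± 0.61, 82.5% ± 0.63 and 81.7% ± 0.87 at 3, 9 and 24 h (SD, n = 3 throughout). At P10 it was 75.2% ± 2.33 in Serum/LIF, 89.3% ± 2.25 in EMM and 66.6% ± 1.10 in 2i/LIF, and at P20 it was 76.8% ± 2.27 in Serum/LIF, 85.6% ± 0.91 in EMM and 74.1% ± 3.36 in 2i/LIF. The share was thus highest in EMM in each experiment and passage. The exact test over 3 against 3 libraries cannot go below p = 0.1, so no p is given, and exon lengths include exons that these cells may not use.

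**Figure D4:**
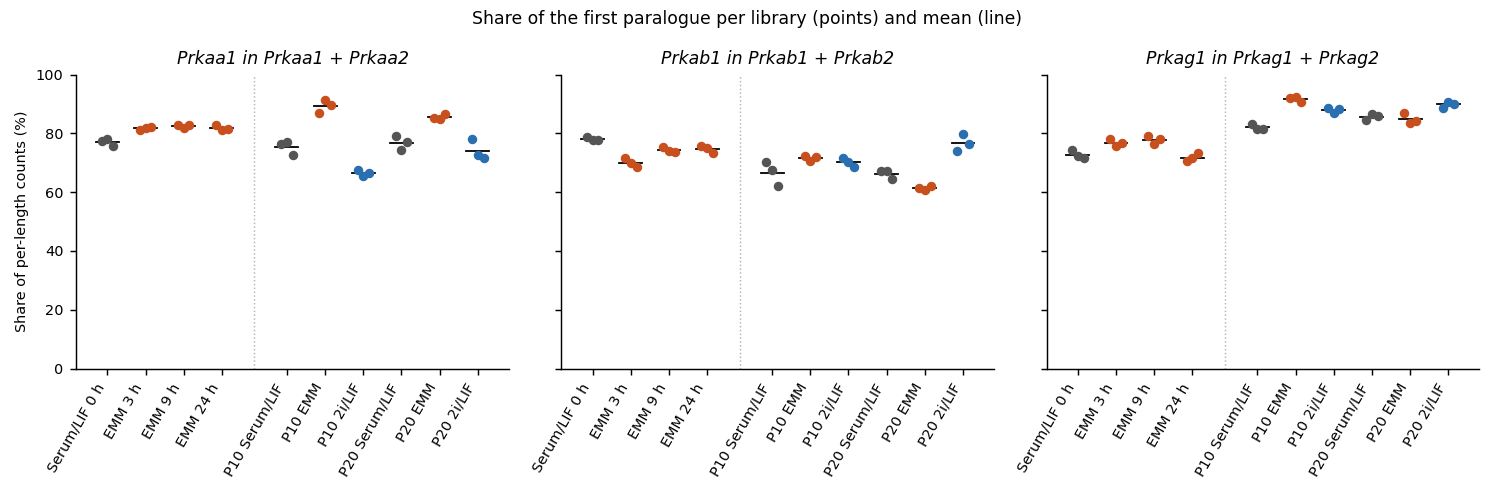
Share (%) of the first paralogue in the per-length counts of each AMPK subunit pair, with a point per library, a line at the mean of 3 and a dotted line between the time course and the passage experiment. The Prkaa1 share is higher in every EMM group than in the Serum/LIF libraries beside it, with its top at 89.3% in P10 EMM.

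Of the β genes, Prkab2 peaked at 3 h and Prkab1 was not called at any time. Prkab2, encoding β2 (ENSMUSG00000038205, chr3:97658193-97673812, plus strand), had 546, 577 and 556 in Serum/LIF, 829, 822 and 895 at 3 h, 697, 698 and 676 at 9 h and 661, 649 and 681 at 24 h. The 3 h libraries were the highest, and no EMM library overlapped with Serum/LIF. Prkab2 had a log2 fold change of 0.60 ± 0.05 (adjusted p = 2.7e-07) at 3 h, 0.30 ± 0.05 at 9 h and 0.24 ± 0.05 at 24 h, and 24 h against 3 h was -0.36 ± 0.05 (adjusted p = 3.67e-05). Prkab1, encoding β1 (ENSMUSG00000029513, chr5:116013586-116024508, minus strand), stayed between 1121 and 1274 normalized counts over the 12 libraries, with a log2 fold change of -0.01 ± 0.06 (adjusted p = 0.904) at 24 h and a 95% interval from -0.12 to 0.10. The Prkab1 share of the per-length β sum went from 78.0% ± 0.58 in Serum/LIF to 69.9% ± 1.62 at 3 h and 74.8% ± 1.36 at 24 h. Prkab1 overlaps the antisense gene Gm14508, and Prkab2 overlaps Gm17651 on the opposite strand.

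In the passage experiment Prkab1 was called higher in 2i/LIF than in Serum/LIF at both passages. Its values were 401, 386 and 371 in P10 Serum/LIF, 536, 478 and 456 in P10 EMM and 507, 604 and 614 in P10 2i/LIF. At P20 they were 409, 394 and 388 in Serum/LIF, 396, 393 and 403 in EMM and 498, 863 and 849.6 in 2i/LIF. The P20 2i/LIF libraries were all above the other media, and replicate 1, the shallowest library, stood apart from its group. It did so over the tested genes as a whole, with a chi-square per degree of freedom of 53.5 against replicate 2 and 45.7 against replicate 3. Replicates 2 and 3 gave 14, and this spread enters every P20 2i/LIF comparison. The log2 fold change of 2i/LIF against Serum/LIF was 0.58 ± 0.14 (adjusted p = 0.00198) at P10, lost without P10 2i/LIF replicate 3 (0.53), and 0.91 ± 0.14 (adjusted p = 2.8e-05) at P20, or 1.11 without P20 2i/LIF replicate 1. EMM against Serum/LIF was 0.35 ± 0.15 (adjusted p = 0.0541) at P10, with the EMM libraries all above Serum/LIF, and 0.00 ± 0.14 (adjusted p = 0.994) at P20. EMM against 2i/LIF was -0.23 ± 0.14 (adjusted p = 0.193) at P10, where a difference between these media was not shown, and -0.91 ± 0.14 (adjusted p = 2.13e-05) at P20. Prkab2 ranged from 281 to 465 normalized counts over the 18 libraries and was called in none of the 6 comparisons between media.

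Prkag2 fell early in EMM. Prkag2, encoding γ2 (ENSMUSG00000028944, chr5:24862744-25100642, minus strand), had 547, 524 and 561 in Serum/LIF, 398, 441 and 385 at 3 h, 421, 487 and 442 at 9 h and 527, 551 and 504 at 24 h. The 3 h and 9 h libraries were below Serum/LIF, and the 24 h libraries overlapped with it. The log2 fold change was -0.41 ± 0.07 (adjusted p = 0.000214) at 3 h, -0.27 ± 0.07 (adjusted p = 0.00458) at 9 h and -0.04 ± 0.07 (adjusted p = 0.616) at 24 h, and 24 h against 3 h was 0.37 ± 0.07 (adjusted p = 0.000475). The 9 h call was lost without Serum/LIF replicate 1 or 3 or EMM 9 h replicate 1 or 3, with values from -0.26 to -0.21. Prkag2 overlaps 3 genes on the opposite strand, Prkag2os1, Prkag2os2 and 1500035N22Rik.

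Prkag1, encoding γ1 (ENSMUSG00000067713, chr15:98812797-98831521, minus strand, with the antisense gene B130046B21Rik), ranged from 421 to 538 normalized counts in the time course and was called at no time against Serum/LIF. In the passage experiment Prkag1 had 512, 389.9 and 419 in P10 Serum/LIF, 558, 592 and 518 in P10 EMM and 832, 822 and 845 in P10 2i/LIF. At P20 it had 478, 479 and 486 in Serum/LIF, 391, 368 and 407 in EMM and 740.1, 806 and 751 in 2i/LIF. It was highest in 2i/LIF at both passages, and EMM lay above Serum/LIF at P10 and below it at P20. 2i/LIF against Serum/LIF was 0.92 ± 0.09 (adjusted p = 9.12e-08) at P10 and 0.67 ± 0.09 at P20, and EMM against Serum/LIF was 0.34 ± 0.09 (adjusted p = 0.00552) at P10 and -0.31 ± 0.09 (adjusted p = 0.0123) at P20. The P10 EMM call was lost without P10 EMM replicate 1 (0.34) or 2 (0.29) and without P10 Serum/LIF replicate 2 (0.26) or 3 (0.31). The P20 EMM decrease of Prkag1 passed with DESeq2 size factors (adjusted p = 0.00721), library totals (0.00243), at least 10 counts in each library (0.00383), the DESeq2 Wald test (0.00256) and a fit of these groups alone (0.00265), and did not pass with no filter (0.058), with the replicate block (0.0179) or without any 1 library of these groups.

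Prkag2 in the passage experiment had 311, 265 and 283 in P10 Serum/LIF, 141, 147 and 160.3 in P10 EMM and 320.2, 363 and 334 in P10 2i/LIF, with no overlap. At P20 it had 263, 221 and 235 in Serum/LIF, 178, 215 and 229 in EMM and 279.6, 247 and 248 in 2i/LIF, and Serum/LIF overlapped with both other media. EMM against Serum/LIF was -0.95 ± 0.12 (adjusted p = 3.28e-06) at P10 and -0.20 ± 0.11 (adjusted p = 0.163) at P20. The Prkag1 share of the per-length γ sum was 82.0% ± 0.94 in P10 Serum/LIF, 91.7% ± 0.96 in P10 EMM and 88.0% ± 0.78 in P10 2i/LIF. At P20 that share was 85.7% ± 1.11 in Serum/LIF, 84.8% ± 1.69 in EMM and 89.8% ± 0.98 in 2i/LIF. Prkag3, the remaining γ gene, did not pass the filter on low counts in either experiment.

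**Figure D5:**
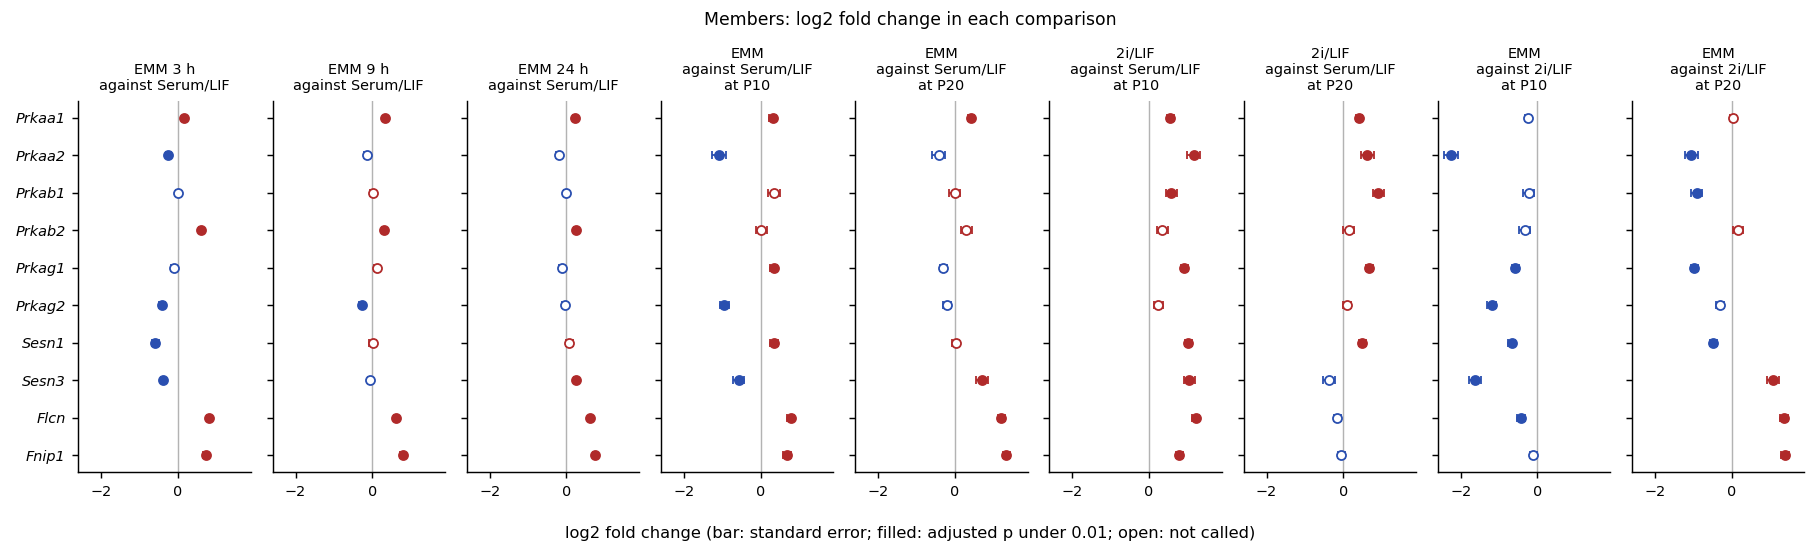
Log2 fold change (x axis) of the 10 members in 9 comparisons, with bars for the standard error, filled points for an adjusted p under 0.01 and open points for the rest. Flcn, Fnip1 and Prkaa1 are filled and positive in all 5 EMM against Serum/LIF panels, and Prkaa2 is the farthest to the left at -2.25 in P10 EMM against 2i/LIF.

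Counts of called members are given beside the share of all genes called by the same rule. At 3 h, 4 members were called higher (16.3% of the 16049 tested genes) and 4 lower (18.2%), with 34.5% of genes called either way. At 9 h there were 4 higher (18.5%) and 1 lower (19.7%), with 38.2% either way, and at 24 h there were 5 higher (21.8%) and none lower (22.2%), with 44.0% either way. Between 24 h and 3 h 5 members were called (40.1%). At P10 EMM against Serum/LIF gave 5 members higher (18.7% of the 16054 tested genes) and 3 lower (18.7%), with 37.4% either way, and 2i/LIF against Serum/LIF gave 8 higher (26.4%) and none lower (25.6%), with 52.0% either way. At P20 EMM against Serum/LIF gave 4 higher (13.6%) and none lower (12.5%), with 26.0% either way, and 2i/LIF against Serum/LIF gave 5 higher (21.0%) and none lower (23.2%), with 44.2% either way. Against 2i/LIF, P10 EMM had none higher (22.9%) and 6 lower (22.2%), with 45.1% either way, and P20 EMM had 3 higher (25.7%) and 4 lower (22.9%), with 48.6% either way. From P10 to P20, 4 members changed in the EMM against Serum/LIF difference (14.7%), 4 in the 2i/LIF against Serum/LIF difference (20.0%) and 6 in the EMM against 2i/LIF difference (32.3%). Over the 10 members the median log2 fold change was 0.86 for 2i/LIF against Serum/LIF at P10, beside 0.02 over all tested genes, and 0.32 for EMM at P10, beside 0.01. At P20 the member median was 0.27 for 2i/LIF and 0.16 for EMM against Serum/LIF, and in the time course it was -0.06 at 3 h, 0.07 at 9 h and 0.14 at 24 h, where the medians over all tested genes ran from -0.01 to 1e-04. In P10 EMM over Serum/LIF, the calls of Prkaa1, Prkag1 and Sesn1 were also lost with library totals, with no filter, with at least 10 counts in each library, and in a fit of these groups alone.

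Most called changes of the members were smaller than a doubling. With a log2 change beyond 1 required as well, 0 members were called at 3 h (4.22% of all genes), 9 h (5.55%), 24 h (8.18%) and between 24 h and 3 h (4.44%). In P10 EMM over Serum/LIF 1 member passed, Prkaa2 (17.1% of all genes), and in P20 EMM 2 passed, Flcn and Fnip1 (9.63%). In 2i/LIF over Serum/LIF 4 passed at P10, which were Prkaa2, Sesn1, Sesn3 and Flcn (26.4%), and 0 at P20 (22.3%). EMM against 2i/LIF gave 3 at P10 (22.1%) and 4 at P20 (25.3%). For the changes between passages, 1 passed in EMM against Serum/LIF (8.40%), 2 in 2i/LIF against Serum/LIF (9.32%) and 4 in EMM against 2i/LIF (16.5%).

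The kinases that activate AMPK were examined next. Stk11 (LKB1), the main activating kinase, had a log2 fold change of -0.14 ± 0.05 at 3 h (adjusted p = 0.0214), 0.06 ± 0.09 at P10 and 0.05 ± 0.08 at P20 and was called in none of these. Camkk2, the calcium-dependent activator, fell by 0.65 ± 0.05 at 3 h (adjusted p = 9.45e-08) and by 0.40 ± 0.05 at 9 h, and was at -0.12 ± 0.10 in P10 EMM and 0.91 ± 0.09 in P10 2i/LIF over Serum/LIF. At 24 h the lowest value among the 8 upstream genes, Camkk2 included, was -0.19. Of the 8 upstream genes, 1 was called higher and 2 lower at 3 h (34.5% of all genes called), none and 1 at 9 h (38.2%), and 2 and 1 at 24 h (44.0%). For EMM against Serum/LIF none was higher and 2 were lower at P10 (37.4%), and none was called either way at P20 (26.0%). Of the 16 AMPK substrate genes, 3 were called higher and 4 lower at 3 h (16.3% and 18.2% of all genes), 6 and 3 at 9 h (18.5% and 19.7%) and 5 and 4 at 24 h (21.8% and 22.2%). In EMM over Serum/LIF 3 of them were higher and 3 lower at P10 (18.7% and 18.7%), and 3 and none at P20 (13.6% and 12.5%). Pfkfb3, which makes the glycolytic activator fructose 2,6-bisphosphate, rose by 1.40 ± 0.08 at 3 h and 1.67 ± 0.08 at 9 h. Over all 80 pathway genes, 78 were tested and 22 were called higher and 22 lower at 3 h, 24 and 22 at 9 h and 23 and 26 at 24 h. In P10 EMM over Serum/LIF 17 were called higher and 16 lower, and in P20 EMM 20 and 9, beside those same shares of all genes. Among the AMPK-related kinases, which LKB1 also activates, Nuak2 fell by 2.74 on the log2 scale and Mark1 was at -1.98 ± 0.29 in P10 EMM over Serum/LIF. Of the 12 kinases on that list, 2 were called higher and 4 lower in P10 EMM (18.7% and 18.7% of all genes). In P20 EMM 3 were higher and 2 lower (13.6% and 12.5%), and the lowest value was -1.22. In P10 2i/LIF over Serum/LIF Nuak1 fell by 2.74, and the cell cycle inhibitor Cdkn1a, listed as a p53 target, rose by 2.54 ± 0.08.

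Cell type markers moved with the media of the passage experiment. The 5 pluripotent cell markers summed to 40440 to 44750 normalized counts in P10 Serum/LIF, 55480 to 63420 in P10 EMM and 44570 to 47070 in P10 2i/LIF. At P20 they summed to 47980 to 52000 in Serum/LIF, 42850 to 43870 in EMM and 49860 to 53700 in 2i/LIF. EMM was thus above Serum/LIF at P10 and below it at P20, with 3 markers called higher and none lower at P10, none higher and 2 lower at P20, and the change of the EMM difference called lower for all 5. The 5 fibroblast markers summed to 2225 to 2658 normalized counts in P10 Serum/LIF, 286 to 364 in P10 EMM and 45.02 to 60.3 in P10 2i/LIF. At P20 they summed to 3572 to 7104 in Serum/LIF, 142 to 190 in EMM and 77.5 to 90.9 in 2i/LIF, with Postn at 0 in all EMM libraries. The sums in P10 EMM rested on few of these markers, since in P10 EMM over Serum/LIF 4 were called lower and Thy1 was called higher (1.14 ± 0.22, adjusted p = 0.000309), giving 259 to 357 normalized counts of the sum there, while Col1a2, Col3a1 and Postn were at the floor of 3 counts or below. The 5 markers of 2-cell-like cells summed to 243 to 432 in P10 Serum/LIF, 20.3 to 68.7 in P10 EMM and 303 to 872 in P10 2i/LIF, and at P20 to 627 to 1393 in Serum/LIF, 31.9 to 77.2 in EMM and 6.65 to 54.6 in 2i/LIF. The 6 primitive endoderm markers summed to 172 to 226 in P10 Serum/LIF, 109 to 125 in P10 EMM and 91.5 to 103 in P10 2i/LIF, and at P20, in the same order of media, to 226 to 315, 224 to 345 and 77.5 to 136. The 5 trophoblast markers summed to 288 to 438 in P10 Serum/LIF, 250 to 337 in P10 EMM and 375 to 415 in P10 2i/LIF, and at P20, again in that order, to 341 to 491, 239 to 271 and 160 to 248. In the time course the 6 primitive endoderm markers went from 409 to 443 in Serum/LIF to 739 to 752 at 24 h, with 4 called higher, and the 5 fibroblast markers from 1799 to 1888 down to 1251 to 1473. The part of these cells in the values of the members was not tested.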

How the data were processed

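RNA was sequenced from 12 time-course and 18 passage libraries. The authors deposited a table of raw counts, all whole, for the time course. Their deposited passage table holds estimated counts (expected counts), of which 9.982% were not whole and were rounded here. Per the labels, STAR, featureCounts and DESeq2 were used for the time course and STAR, Salmon and DESeq2 for the passage experiment, on mm10, while the methods name HTSeq. Which counter made each table, and whether it used strand, is not given in the sources used here. Reads can be split between genes that overlap.

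Every column matched 1 sample, and 0 columns were left without one. Genes were filtered with filterByExpr (16049 and 16054 left), scaled with TMM and tested by quasi-likelihood in edgeR 4.0.16 under R 4.3.3. Each experiment had 1 model of its groups, without covariates. P-values were adjusted by Benjamini-Hochberg across the whole table, errors are standard errors unless named SD, and the script was tested on simulated data. Of 100 genes simulated with a log2 change of 0.5, 74 were recovered for EMM 3 h and 17 for P10 EMM, each against Serum/LIF. At a log2 change of 1 these were 98 and 89 of 100. Passage changes of about 0.5 or less could therefore often go uncalled. The study called genes with DESeq2 and a fold threshold, which is here an alternative (DESeq2 1.42.0). Gene models were from GENCODE M21 and promoters from RefSeq. The members and gene lists were chosen with earlier results of these data known. Named genes were the members, 5 relatives and, per comparison, up to 5 pathway genes with the largest change beyond 1 (log2) and a mean of at least 50 normalized counts in 1 group. Rraga, Tfe3 and Tfec fall outside that rule and were named after their values were seen. The change of the EMM against 2i/LIF difference was added after the values were seen.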

Additional observations from a re-analysis of the deposited data

Results flagged for a closer look

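A number of members responded differently at 2 times or at 2 passages, by a test of that difference in the edgeR model. Between 3 h and 24 h of EMM, 5 members differed. Sesn1 rose by 0.67 ± 0.09 and Sesn3 by 0.63 ± 0.05 on the log2 scale, Prkag2 by 0.37 ± 0.07, while the change was -0.36 ± 0.05 for Prkab2 and -0.19 ± 0.05 for Flcn. In this comparison 40.1% of all genes were called.

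From P10 to P20 the EMM against Serum/LIF difference changed for 4 members, with 14.7% of all genes called. It rose for Sesn3 by 1.29 ± 0.21 (adjusted p = 0.00022), for Prkag2 by 0.74 ± 0.16 (adjusted p = 0.00261) and for Fnip1 by 0.66 ± 0.13, and it fell by 0.65 ± 0.13 for Prkag1 (adjusted p = 0.00127). The Prkag2 call was lost without P10 Serum/LIF replicate 1 (0.66, adjusted p = 0.0104), and the Prkag1 call with no filter on low counts (-0.57, adjusted p = 0.0102).

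The 2i/LIF against Serum/LIF difference fell between the passages for 4 members, with 20.0% of all genes called. The change was -1.42 ± 0.21 for Sesn3 (adjusted p = 0.000104), -1.37 ± 0.13 for Flcn (adjusted p = 2.08e-06), -0.84 ± 0.14 for Fnip1 (adjusted p = 0.000199) and -0.53 ± 0.13 for Sesn1 (adjusted p = 0.00396). The Sesn1 call was lost without P10 2i/LIF replicate 3 (-0.49) or P10 Serum/LIF replicate 1 (-0.48), and with no filter on low counts (-0.47, adjusted p = 0.118).

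The EMM against 2i/LIF difference changed for 6 members, with 32.3% of all genes called. It shares its EMM and 2i/LIF libraries with the changes above. It rose by 2.71 ± 0.22 for Sesn3 (adjusted p = 3.91e-08), 1.80 ± 0.13 for Flcn (adjusted p = 1.63e-08), 1.51 ± 0.14 for Fnip1 (adjusted p = 1.78e-07), 1.20 ± 0.25 for Prkaa2 (adjusted p = 0.000822) and 0.89 ± 0.16 for Prkag2 (adjusted p = 0.000302). It fell by 0.69 ± 0.20 for Prkab1 (adjusted p = 0.00999), a call lost without any one of P10 2i/LIF replicates 1, 2 and 3, P10 EMM replicates 1 and 2, P20 2i/LIF replicates 2 and 3 and P20 EMM replicates 1, 2 and 3, with values from -0.74 to -0.56. The Prkab1 call was also lost with the replicate block (-0.68, adjusted p = 0.0129) and with library totals (-0.61, adjusted p = 0.0263). Sesn3 and Flcn were lower in EMM than in 2i/LIF in all P10 libraries and higher in all P20 libraries.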

How the results depend on the processing

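Of 130 pairs of member and comparison, 75 were called. No called pair changed its sign under any alternative run, and 58 of them kept the call in every alternative except the fold threshold. With that threshold 0 members were called in each time-course comparison, 1 and 2 for EMM against Serum/LIF at P10 and P20, 3 and 4 for EMM against 2i/LIF, 4 and 0 for 2i/LIF against Serum/LIF, and 1, 2 and 4 for the changes of the EMM against Serum/LIF, 2i/LIF against Serum/LIF and EMM against 2i/LIF differences. For EMM against Serum/LIF at P10, 5 members instead of 8 were called with library totals, no filter, a minimum of 10 counts per library or a fit of the 2 groups alone, each time without Prkaa1, Prkag1 and Sesn1. At P20 the fit of 2 groups alone called 7 instead of 4, adding Prkaa2, Prkab2 and Prkag1, and library totals called 3 instead of 5 for 2i/LIF, without Prkaa1 and Prkaa2. That scaling shifted the median of all genes by -0.12 there. Leaving out 1 library at a time gave 6 to 7 members at 3 h, 4 to 5 at 9 h, 5 at 24 h, 4 to 5 between 24 h and 3 h, 5 to 7 for EMM against Serum/LIF at P10 and 4 at P20, 6 to 7 and 7 for EMM against 2i/LIF, 7 to 9 and 4 to 5 for 2i/LIF against Serum/LIF, and 3 to 5, 3 to 5 and 5 to 6 for the 3 changes. The lowest P10 count, 5, came without P10 EMM replicate 1, P10 EMM replicate 2 or P10 Serum/LIF replicate 3.

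Replicate numbers are shared by the groups, but same-numbered libraries did not all deviate together. By the numbers in the titles, their correlations ran from -0.134 to 0.207 over 18 pairs in the time course, with 5 of 12 libraries correlating best with their own number. In the passage experiment they ran from -0.212 to 0.299 over 45 pairs, with 7 of 18. The 3 passage pairs over 0.1 were those of P10 with P20 2i/LIF (0.299, 0.134 and 0.224). The description labels of the time course number the libraries differently, and by these numbers 15 pairs ran from -0.132 to 0.28, with 5 over 0.1. With the replicate block on the numbers in the description labels, 3 members instead of 5 were called at 24 h, without Prkab2 (0.21, adjusted p = 0.0140) and Sesn3 (0.19, adjusted p = 0.0185). The same block lost Prkaa1 at 3 h (0.14, adjusted p = 0.0529) and Prkag2 at 9 h (-0.24, adjusted p = 0.0101). The cause of these differences was not tested. Standard errors of the members were larger in the passage experiment (for Prkaa1 0.08 against 0.04), which limits what small changes there can show. Its libraries were shallower, and edgeR's common dispersion, an estimate of the spread between replicates, was 0.0153 against 0.00364 in the time course. The parts of depth and spread in these errors were not separated.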
